A study of Mus musculus with 22 samples.

Results

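Meis1, Meis2 and Pbx3, which encode homeodomain transcription factors of the TALE class, were examined for 5-methylcytosine (5mC) and 5-hydroxymethylcytosine (5hmC) in cortex, olfactory bulb and cerebellum. They are 3 of the 21755 protein-coding genes annotated on chromosomes 1 to 19 and X. Each gene was placed at its GENCODE release M21 span in GRCm38 (mm10). All bins that overlapped it were taken, which gave 9 of 25664 bins of 100 kb for 5mC and 5 of 2581 bins of 1 Mb for 5hmC. The flanks of 1 Mb on both sides held 60 further bins for 5mC and 6 for 5hmC, and all member and flank bins passed the filter on bins listed at 0 or 1. The 3 genes were picked with their levels in these same tissues already known, so their levels, differences and ranks are given as a description, with no test.

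The tissues came from female C57BL/6 mice at 8 weeks of age, for which the labels name no treatment and no other genotype. Cortex was the cerebral cortex without hippocampus, and bulb and cerebellum were taken whole. OxBS-seq, which oxidizes 5hmC before the bisulfite step and leaves 5mC as the mark read as C, was done on 3 cortex, 2 olfactory bulb and 2 cerebellum libraries. TAB-seq, in which 5hmC is protected with a glucose before a TET enzyme oxidizes 5mC, leaves 5hmC as the mark read as C and gave it in 3 libraries per tissue. Replicates are described as independent mice. The values are levels per bin, as a fraction from 0 to 1, and they carry no coverage per bin, so errors are given as the SD between libraries.

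TALE homeodomain proteins carry extra residues in a loop of the homeodomain. MEIS and PBX proteins bind DNA together and act as partners of HOX and other homeodomain factors. Pbx genes encode the partners that MEIS proteins bind and help to keep in the nucleus. In the brain, MEIS2 is known for its role in the interneurons that migrate into the olfactory bulb throughout life. MEIS1 is found in developing cerebellar granule cells. 5mC is the methyl mark set by DNA methyltransferases on CpG sites, and 5hmC is the first product of its oxidation by TET enzymes, most abundant in neurons.

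All 3 genes lie on the minus strand. Meis1 (ENSMUSG00000020160.18) spans chr11:18879817-19018985, Meis2 (ENSMUSG00000027210.20) chr2:115863064-116065839 and Pbx3 (ENSMUSG00000038718.15) chr2:34171457-34373142. The 250 bases upstream of the outermost annotated start are printed for Meis1 and Meis2 to show how many CpG sites, the sites that carry the marks, stand beside the start. They were read from the GRCm38 sequence given by NCBI RefSeq, on the minus strand and 5′ to 3′, with each CpG in capitals.
Meis1, chr11:19018986-19019235: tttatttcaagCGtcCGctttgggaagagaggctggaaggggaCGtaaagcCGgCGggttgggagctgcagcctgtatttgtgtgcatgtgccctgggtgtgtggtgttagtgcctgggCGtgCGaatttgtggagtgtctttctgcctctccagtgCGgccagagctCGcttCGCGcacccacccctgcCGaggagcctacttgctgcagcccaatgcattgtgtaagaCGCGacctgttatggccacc
Meis2, chr2:116065840-116066089: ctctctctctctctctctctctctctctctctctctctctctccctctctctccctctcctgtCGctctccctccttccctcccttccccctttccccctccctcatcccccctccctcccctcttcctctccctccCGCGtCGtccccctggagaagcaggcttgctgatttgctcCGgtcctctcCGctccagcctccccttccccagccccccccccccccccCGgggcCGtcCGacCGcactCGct
The Meis1 window holds 14 CpG sites and is 58.8% G and C. The Meis2 window holds 11 CpG sites and is 67.6% G and C. The median over 32851 RefSeq promoter windows of 250 bases was 6 CpG sites, and 70.6% of them held fewer than the Meis1 window and 64.4% fewer than the Meis2 window. TGACAG, the core of the sequence that MEIS proteins bind, was searched on both strands (as TGACAG and CTGTCA). It occurs in neither window, against 15.9% of all windows. Each 5mC value below averages a bin of 100 kb around these starts and is not the level of the windows themselves.

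Libraries of the same tissue correlated across bins with Pearson's r between 0.947 and 0.982 for 5mC and between 0.994 and 0.998 for 5hmC. The median level over all bins differed between tissues, at 0.697 in cortex, 0.729 in the bulb and 0.753 in cerebellum for 5mC, and at 0.175, 0.152 and 0.0931 for 5hmC. A difference at a gene is therefore given beside the median difference over all bins. Olfactory bulb minus cortex had a median of 0.0307 for 5mC and -0.0198 for 5hmC. Cerebellum minus cortex had a median of 0.0585 and -0.0708, and cerebellum minus olfactory bulb a median of 0.0248 and -0.0498. Cortex replicate 3 of oxBS-seq was the lowest library of its tissue, with a median 5mC level of 0.679 against 0.705 and 0.706. As a check of the tissue labels, the bin with the gene start had its lowest 5mC level in the named tissue for 6 of 6 markers of cortical excitatory neurons, 8 of 9 markers of olfactory bulb interneurons (not Etv1) and 3 of 6 markers of cerebellar granule neurons (not Gabra6, Barhl1 and En2). Some markers share a bin (Dlx1 with Dlx2, Dlx5 with Dlx6 and Zic1 with Zic4). Cortex had the lowest median 5mC level of the 3 tissues, so a bin may be lowest there whichever gene it holds. The share of all bins lowest in each tissue was not counted, so the 6 of 6 is a weak check of the cortex label.

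In the bulb, 5mC was far lower over Meis2 than in either other tissue. The bin from 115900001 to 116000000, which lies wholly inside the gene, had levels of 0.642, 0.621 and 0.618 in cortex, 0.303 and 0.340 in olfactory bulb, and 0.786 and 0.778 in cerebellum. The tissues did not overlap, and the mean of the bulb was below that of cortex, with a difference of -0.305, and that of cerebellum was above the bulb by 0.460. The bin from 116000001 to 116100000 holds the start, 9 exons of the gene and 1212 CpG sites. It had 0.458, 0.428 and 0.421 in cortex, 0.222 and 0.189 in olfactory bulb, and 0.576 and 0.545 in cerebellum. This was the lowest of the 9 gene bins in each of cortex and olfactory bulb. The bin from 115800001 to 115900000, of which the 3′ end of Meis2 covers 36.9%, had 0.577, 0.593 and 0.530 in cortex, 0.369 and 0.354 in olfactory bulb, and 0.639 and 0.619 in cerebellum. In all 3 bins the order was olfactory bulb, cortex, cerebellum, with no library of one tissue among those of another.

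Pbx3 had the same order over its 5′ part and a smaller spread at its 3′ end. In the bin from 34200001 to 34300000, wholly inside the gene, the levels were 0.672, 0.693 and 0.613 in cortex, 0.371 and 0.331 in olfactory bulb, and 0.731 and 0.701 in cerebellum. Both bulb libraries lay far below all others, and cerebellum lay just above cortex. The bin from 34300001 to 34400000, with the start of the gene, had 0.637, 0.598 and 0.589 in cortex, 0.403 and 0.393 in olfactory bulb, and 0.688 and 0.681 in cerebellum. The bin from 34100001 to 34200000 holds the 3′ end, which covers 28.5% of it. It had 0.699, 0.726 and 0.675 in cortex, 0.664 and 0.646 in olfactory bulb, and 0.751 and 0.716 in cerebellum. Here olfactory bulb minus cortex was only -0.0453, and the cortex and cerebellum libraries overlapped.

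Meis1 differed from the other two in that cerebellum was low as well. The bin from 18900001 to 19000000, wholly inside the gene, had 5mC levels of 0.680, 0.705 and 0.671 in cortex, 0.534 and 0.501 in olfactory bulb, and 0.476 and 0.466 in cerebellum. Cerebellum was the lowest tissue and did not overlap the bulb. In the bin from 19000001 to 19100000, with the start and 6 exons, the levels were closer together, at 0.575, 0.579 and 0.540 in cortex, 0.531 and 0.535 in olfactory bulb, and 0.520 and 0.527 in cerebellum. Both tissues were below all cortex libraries, with differences from cortex of -0.0312 for olfactory bulb and -0.0410 for cerebellum. In the bin from 18800001 to 18900000, with the 3′ end, cortex (0.618, 0.603 and 0.554) and olfactory bulb (0.634 and 0.563) overlapped, and cerebellum was above cortex at 0.643 and 0.626. The differences of bulb and cerebellum from cortex were thus largest in the middle bin, which holds 777 CpG sites against a median of 751 per bin.

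**Figure D1:**
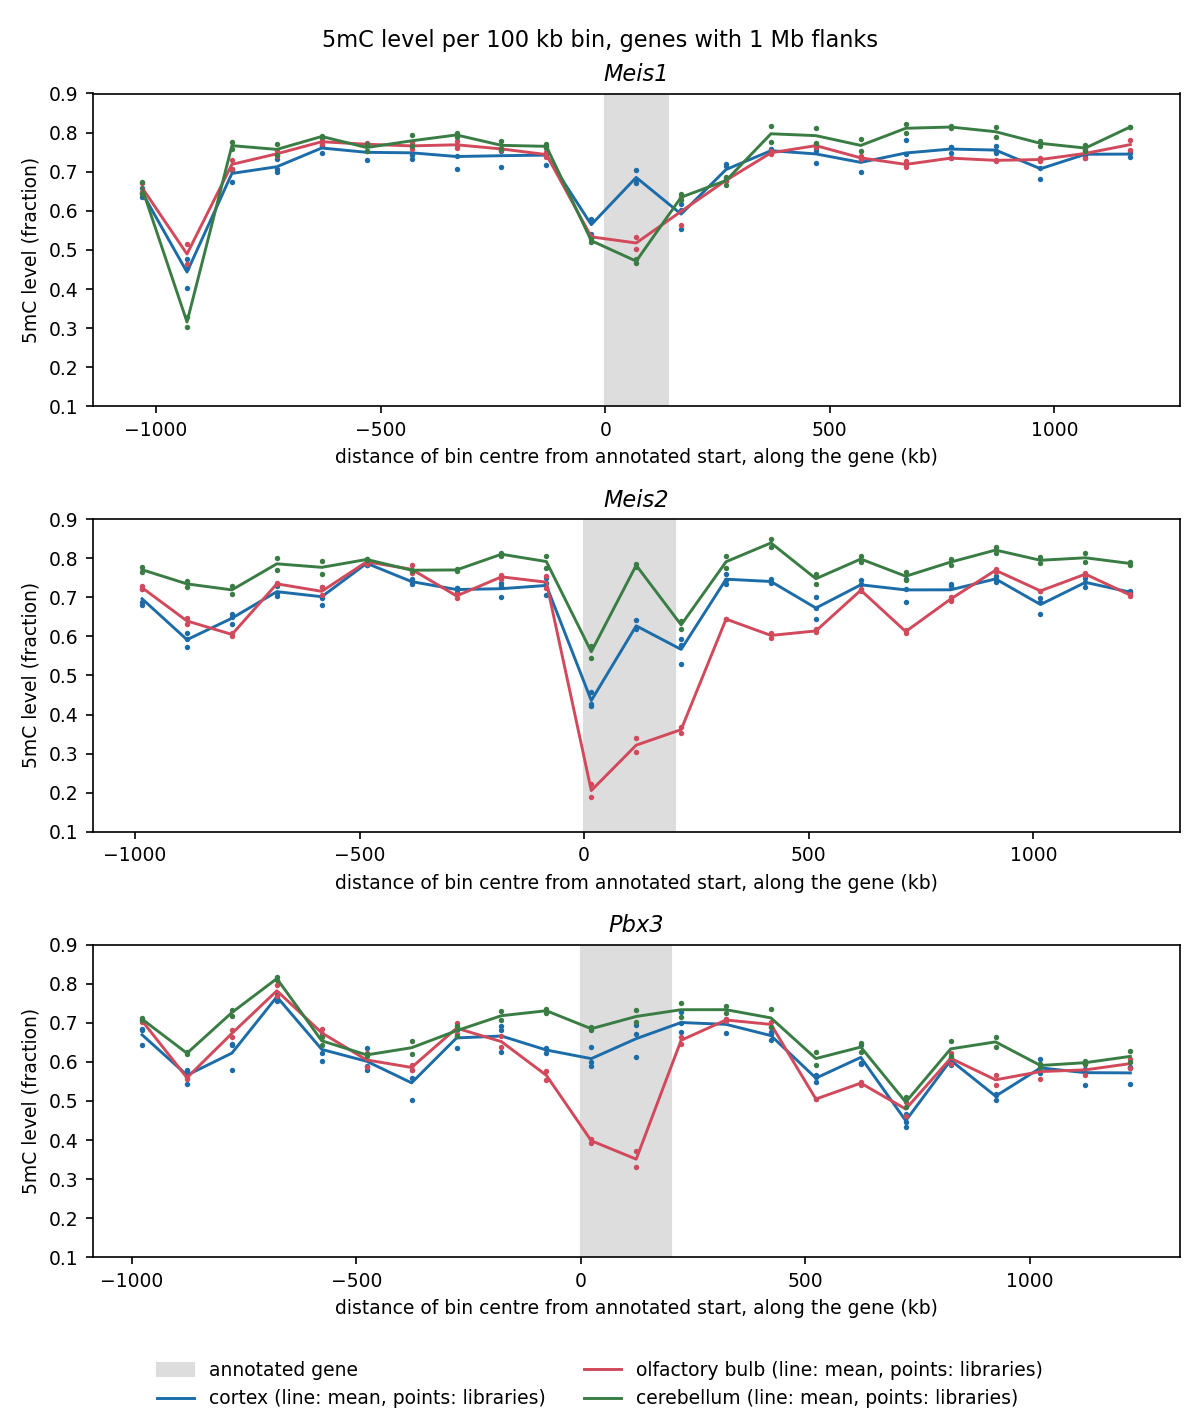
5mC level (fraction) of each 100 kb bin against the distance of the bin's centre from the annotated start in kb, positive along the gene, for Meis1, Meis2 and Pbx3 with their 1 Mb flanks. Points are libraries, lines are tissue means and grey marks the gene. The olfactory bulb line drops to 0.206 over Meis2 and to 0.351 over Pbx3, and over Meis1 both olfactory bulb (0.518) and cerebellum (0.471) fall below cortex (0.685).

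Averaged over the bins of a gene, 5mC at Meis2 came to 0.543 ± 0.0186 (SD, n = 3) in cortex, 0.296 ± 0.00246 (SD, n = 2) in the bulb and 0.657 ± 0.0137 (SD, n = 2) in cerebellum. Pbx3 had 0.656 ± 0.0263 (SD, n = 3), 0.468 ± 0.0161 (SD, n = 2) and 0.711 ± 0.0170 (SD, n = 2). Both genes thus had the order olfactory bulb, cortex, cerebellum. For Pbx3 the step from cortex to cerebellum, 0.0553 ± 0.0313 (root of the summed squared SDs), was close to the median shift of all bins and became -0.00107 when each library was centred on its median. Meis1 had 0.614 ± 0.0224 (SD, n = 3) in cortex, 0.550 ± 0.0237 (SD, n = 2) in the bulb and 0.543 ± 0.00459 (SD, n = 2) in cerebellum. Bulb and cerebellum overlapped for Meis1, and their difference of -0.00671 ± 0.0241 was smaller than the spread between libraries. Olfactory bulb minus cortex was -0.0639 ± 0.0326 for Meis1, -0.247 ± 0.0187 for Meis2 and -0.188 ± 0.0308 for Pbx3, with no overlap between libraries, whereas the median of all bins rose. Without cortex replicate 1, 2 or 3 in turn, or either bulb library, it stayed between -0.0807 and -0.0472 for Meis1, between -0.257 and -0.239 for Meis2 and between -0.203 and -0.176 for Pbx3. These means give each bin the same weight. With bins weighted by the length of the gene in them, olfactory bulb minus cortex was -0.124 for Meis1, -0.263 for Meis2 and -0.235 for Pbx3, and cerebellum minus cortex was -0.153 for Meis1 against -0.0706 unweighted. Bins wholly inside the gene gave -0.168, -0.305 and -0.308 for olfactory bulb minus cortex. In bulk tissue, a lower level in every cell and a larger share of cells with a low level cannot be told apart.

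For olfactory bulb minus cortex, the flank means differed by 0.00946 for Meis1, -0.0123 for Meis2 and 0.00724 for Pbx3, less than the genes did. The median over all bins was 0.0307. Against that shift the flanks of all 3 genes were low in the bulb as well, though less so than the genes. Between cortex and cerebellum the flanks of Pbx3 differed about as much as the gene, by 0.0497 against 0.0553. The mean 5mC level of the 20 flank bins of Meis2 was 0.713 in cortex, 0.700 in the bulb and 0.782 in cerebellum, and gene minus flank came to -0.170 ± 0.0114 (SD, n = 3), -0.404 ± 0.000615 (SD, n = 2) and -0.125 ± 0.00254 (SD, n = 2). For Meis1 the flanks had 0.718, 0.728 and 0.748, and gene minus flank came to -0.104 ± 0.00687 (SD, n = 3), -0.178 ± 0.0232 (SD, n = 2) and -0.205 ± 0.00888 (SD, n = 2). Pbx3 was different, since its flanks were lower, at 0.609, 0.617 and 0.659. The gene was above them in cortex by 0.0466 ± 0.00896 (SD, n = 3) and in cerebellum by 0.0522 ± 0.00500 (SD, n = 2), and below them in olfactory bulb, where gene minus flank came to -0.148 ± 0.00815 (SD, n = 2). The gene content of the flanks differed as well. Protein-coding genes covered 13.7% of the start side and 1.51% of the end side of Meis1, and 1.38% and 19.7% of those of Meis2. At Pbx3 they covered 73.6% of the start side, with 18 genes, and 55.1% of the end side, with 7 genes, so the flanks of Pbx3 are not gene-poor.

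**Figure D2:**
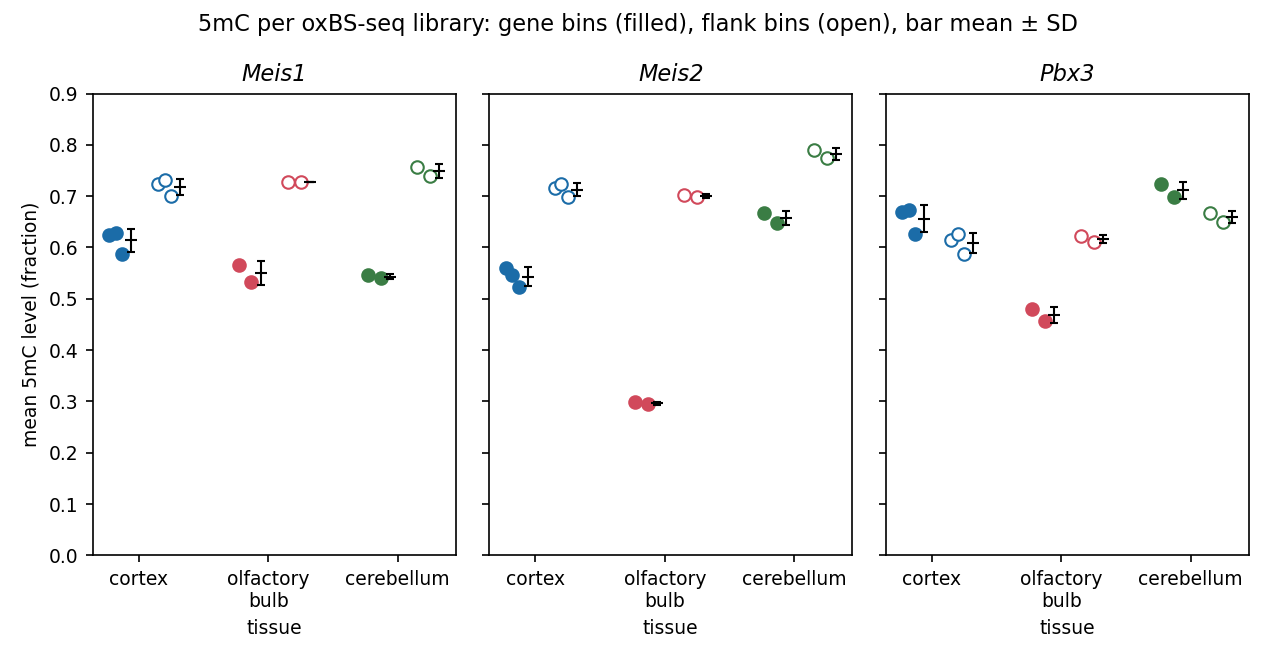
Mean 5mC level (fraction) per oxBS-seq library over the bins of each gene (filled points) and over its 20 flank bins (open points), by tissue, with bars at the mean ± SD. Gene and flanks are farthest apart for Meis2 in olfactory bulb (0.296 against 0.700), and for Pbx3 the gene is below its flanks in olfactory bulb and above them in the other tissues.

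On the end side of Meis2 the low level of the bulb went on past the gene. In the bins from 115500001 to 115800000, which overlap BC052040, a protein-coding gene, the mean level was 0.672, 0.740 and 0.746 in cortex and 0.614, 0.602 and 0.644 in olfactory bulb. Cerebellum had 0.747, 0.839 and 0.791 there. The bin from 115600001 to 115700000 was the lowest flank bin of Meis2 in the bulb and the highest in cerebellum. Farther out, the bulb was at the level of cortex in the bin from 115400001 (0.718 against 0.732) and below it in the bin from 115300001 (0.612 against 0.719), which no protein-coding gene overlaps. Over the 10 bins of the end side, olfactory bulb minus cortex averaged -0.0372 and ranged from -0.138 to 0.0349. Over the 10 bins of the start side it averaged 0.0126 and ranged from -0.0415 to 0.0479. The bin next to the start, from 116100001 to 116200000, had 0.730 in cortex and 0.738 in olfactory bulb. The bulb was thus no longer below cortex there, though the median difference over all bins was 0.0307. Farther out on that side the bulb was below cortex, with no overlap, from 116300001 (0.703 against 0.720) and 116800001 (0.605 against 0.646). In the other bins of that side the mean of the bulb was above that of cortex.

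Of the 20 flank bins of Pbx3, limma called 3 lower in the bulb than in cortex. It called 1 higher, the bin from 35100001 (0.673 in the bulb against 0.622 in cortex). Over all bins 2.18% were lower and 37.6% higher. The 3 lower bins had no overlap between bulb and cortex, as was so for 65.1% of all bins in either direction. The first is the bin on the start side next to the gene, with 0.565 ± 0.0171 (SD, n = 2) against 0.630 ± 0.00676 (SD, n = 3) in cortex and 0.731 ± 0.00791 (SD, n = 2) in cerebellum. That bin holds part of Mapkap1, a gene named here after its values were seen. Mapkap1 runs on into the bins from 34500001 and 34600001. There bulb and cortex overlapped, with 0.652 in the bulb against 0.666 in cortex and 0.686 against 0.661. The other lower bins do not adjoin Pbx3. They lie on the end side, from 33700001 (0.546 in the bulb against 0.611 in cortex) and from 33800001 (0.505 against 0.558). The lowest flank bin of Pbx3 was the one from 33600001 to 33700000 in all tissues. It holds Lmx1b, a LIM homeobox gene, and had 0.449 in cortex, 0.479 in the bulb and 0.497 in cerebellum. Among the flank bins of Meis1 the largest difference was near the far end of the start side, in the bin from 19900001 to 20000000 that overlaps Spred2, an inhibitor of RAS and MAP kinase signalling. It had 0.443 ± 0.0378 (SD, n = 3) in cortex, 0.490 ± 0.0365 (SD, n = 2) in the bulb and 0.316 ± 0.0166 (SD, n = 2) in cerebellum, lower than Meis1 itself in every tissue.

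For the calls of limma over all bins (Benjamini-Hochberg adjusted p under 0.05), 37.6% of the 25664 bins were higher and 2.18% lower in olfactory bulb than in cortex. Of the 9 gene bins 7 were lower and none higher, 8 had no overlap between the libraries of both tissues (65.1% of all bins), and the median difference was -0.205. Of the 60 flank bins, 7 were lower and 2 higher. Between cerebellum and cortex, 71.9% of all bins were higher and 4.44% lower. Of the gene bins 6 were higher and 1 lower, the middle bin of Meis1, 8 had no overlap (81.9% of all bins), and the median difference was 0.0568. Of the flank bins 44 were higher and 1 lower, the Spred2 bin. Between cerebellum and olfactory bulb, 35.3% of all bins were higher and 7.69% lower. Of the gene bins 6, all those of Meis2 and Pbx3, were higher and none was lower, 8 had no overlap (74.8% of all bins), and the median difference was 0.268. Of the flank bins 33 were higher and 1 lower. With each library centred on its median, the split over all bins moved to 2261 higher and 2541 lower for olfactory bulb minus cortex, 6606 and 6235 for cerebellum minus cortex, and 5671 and 5459 for cerebellum minus olfactory bulb. Since the genes were chosen on these comparisons, nothing is read from the counts of their bins.

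Ranked by olfactory bulb minus cortex from the largest fall, the middle bin of Pbx3 was number 2 of the 25664 bins, with -0.308. The 3 bins of Meis2 were number 4, 6 and 11, the start bin of Pbx3 number 8 and the middle bin of Meis1 number 19. Thus 6 of the 9 gene bins were among the 20 bins with the largest fall. For cerebellum minus olfactory bulb, the middle bin of Meis2 was number 2 from the largest rise, the middle bin of Pbx3 number 4 and the start bin of Meis2 number 7. For cerebellum minus cortex, the middle bin of Meis1 was number 24 from the largest fall, with -0.214. Subtracting each library's median level shifts all bins of a comparison alike and leaves these ranks as they are.

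Among the 2488 protein-coding genes of at least 100 kb, Meis2 had the lowest 5mC level of all in olfactory bulb, where the median gene had 0.685. It was also first for the fall from cortex to olfactory bulb and for the rise from olfactory bulb to cerebellum. Pbx3 was number 3 for the fall from cortex to olfactory bulb, number 6 for the rise from olfactory bulb to cerebellum and number 23 from the lowest level in olfactory bulb. In cortex and cerebellum Pbx3 was near the middle, at number 1331 and 1074 from the lowest. On these unweighted means, Meis1 was number 46 for the fall from cortex to olfactory bulb and number 35 for the fall from cortex to cerebellum, where the median gene rose by 0.0670. Its level was number 121 from the lowest in olfactory bulb and number 83 in cerebellum.

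The genes with the most similar levels were found by the root mean square difference over the 7 oxBS-seq libraries among the long genes outside the 3 loci. For Meis2, those given are Apc, a negative regulator of WNT signalling, at 0.0841 (0.528 in cortex, 0.451 in the bulb and 0.638 in cerebellum), Qk, which encodes an RNA-binding protein of glia, at 0.0852 (0.427, 0.355 and 0.616), and Zfp608, a zinc finger gene, at 0.0889 (0.514, 0.440 and 0.582). All 3 had the tissue order of Meis2, with a bulb level above its 0.296. The genes given for each member were picked by these same levels, so nothing is read from a shared order. Of those below, Pcbp3 does not have the order of Pbx3, and Rasa3 does not have that of Meis1. For Pbx3 the nearest were Pcbp3, which encodes a poly(C)-binding protein, at 0.0354 (0.696, 0.473 and 0.669), Prkca, a protein kinase C gene, at 0.0370 (0.615, 0.503 and 0.738) and Auts2 at 0.0404 (0.637, 0.535 and 0.731). For Meis1 they were Ctbp2, which encodes a transcriptional corepressor, at 0.0137 (0.602, 0.564 and 0.545), Ano10 at 0.0239 (0.605, 0.589 and 0.546) and Rasa3, which encodes a GTPase-activating protein, at 0.0258 (0.606, 0.566 and 0.584).

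**Figure D3:**
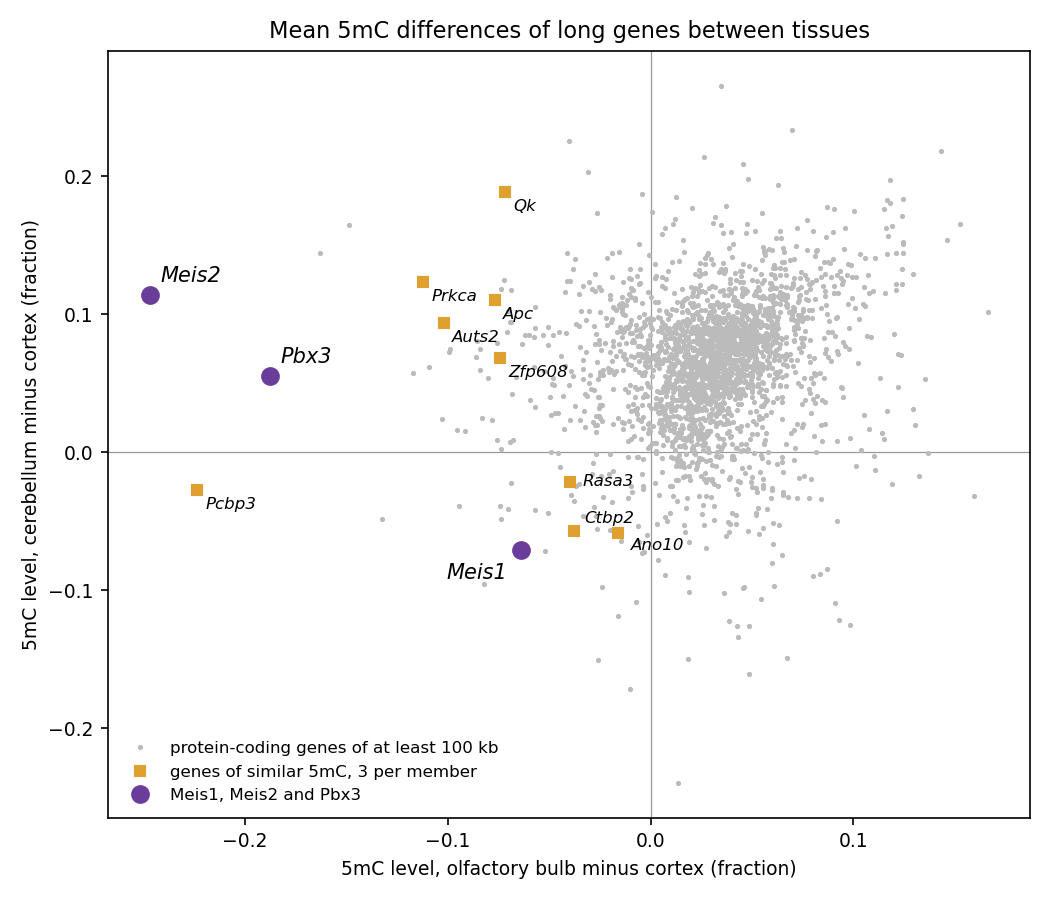
Difference in mean 5mC level (fraction) of cerebellum minus cortex against olfactory bulb minus cortex for the 2488 protein-coding genes of at least 100 kb (grey), with the 3 genes (purple) and 3 genes with similar levels for each (orange squares). Meis2 lies farthest to the left at -0.247, Pbx3 at -0.188, and Meis1 is below 0 on both axes (-0.0639 and -0.0706).

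The 5hmC level was given per 1 Mb, of which the genes cover a small part. The share of a bin that lies in the gene was between 1.90% (the start of Meis1) and 20.2% (Pbx3), so most of each value comes from sequence outside the gene. In the bin from 115000001 to 116000000, with most of Meis2 and all of BC052040, the 5hmC levels were 0.190, 0.206 and 0.185 in cortex, 0.242, 0.245 and 0.232 in olfactory bulb, and 0.0717, 0.0722 and 0.0747 in cerebellum. The bulb was above all cortex libraries, by 0.0459 in the mean, and the cerebellum was far below both. In the bin from 116000001 to 117000000, with the start of Meis2, cortex (0.159, 0.177 and 0.157) and olfactory bulb (0.163, 0.169 and 0.159) overlapped, and cerebellum had 0.0545, 0.0520 and 0.0559. The higher 5hmC of the bulb was therefore on the side of the gene's body and 3′ end, where its 5mC was low beyond the gene as well.

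Meis1 showed the same side difference. The bin from 18000001 to 19000000, with most of the gene, had 0.146, 0.157 and 0.135 in cortex, 0.174, 0.184 and 0.180 in olfactory bulb, and 0.137, 0.130 and 0.135 in cerebellum. The bulb was above cortex by 0.0328 with no overlap, and cortex and cerebellum overlapped. The bin from 19000001 to 20000000, with the start, had 0.174, 0.176 and 0.162 in cortex, 0.155, 0.171 and 0.161 in olfactory bulb, and 0.110, 0.111 and 0.119 in cerebellum. Here cortex and bulb overlapped and cerebellum was lower. The Pbx3 bin, from 34000001 to 35000000, had 0.199, 0.210 and 0.189 in cortex, 0.187, 0.202 and 0.194 in olfactory bulb, and 0.132, 0.139 and 0.135 in cerebellum. Cortex and bulb overlapped in 5hmC for Pbx3, although their 5mC did not in the 100 kb bins over the gene. The scales differ, and averaged into the same 1 Mb bin 5mC was 0.640 in cortex and 0.588 in the bulb.

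**Figure D4:**
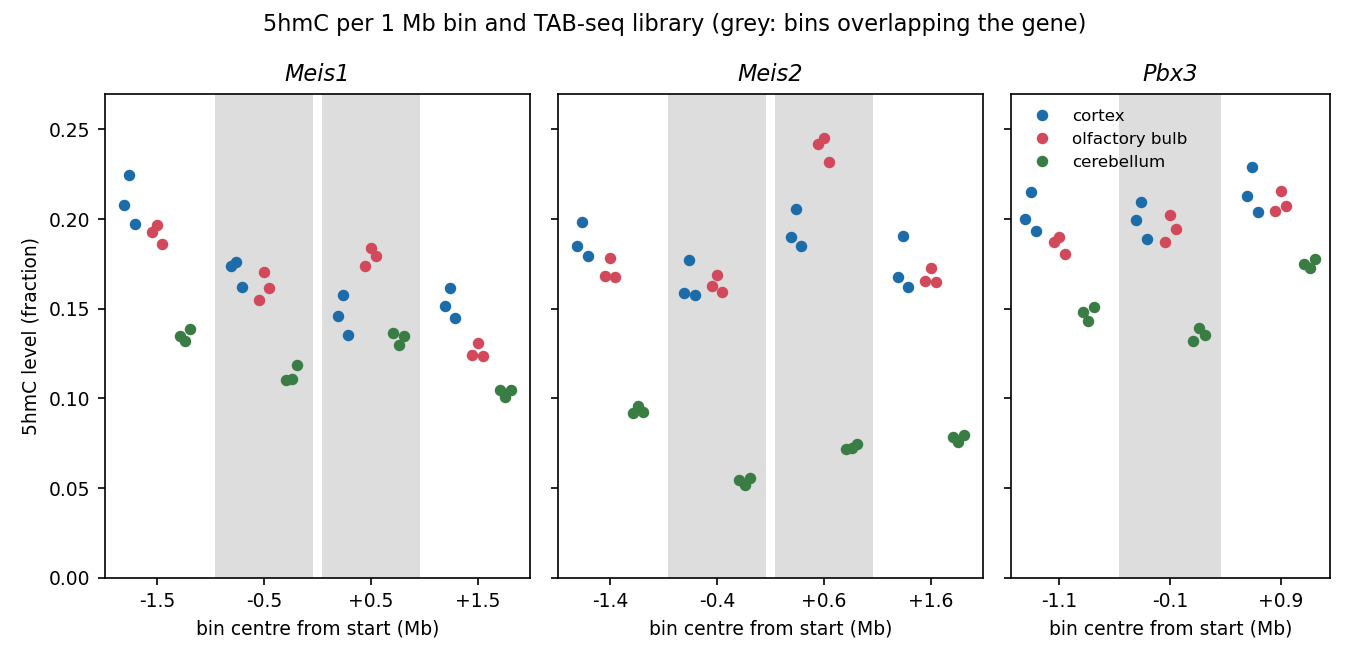
5hmC level (fraction) per TAB-seq library in the 1 Mb bins that overlap each gene (grey) and in the bin on either side, placed by the distance of the bin's centre from the annotated start in Mb, positive along the gene. In the gene bins at +0.5 Mb of Meis1 and +0.6 Mb of Meis2 the olfactory bulb libraries lie above all cortex libraries, and in the Meis2 bins cerebellum does not exceed 0.0747.

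Averaged over the bins of a gene, 5hmC was 0.158 ± 0.00909 in cortex, 0.171 ± 0.00647 in the bulb and 0.123 ± 0.00325 in cerebellum for Meis1 (SD, n = 3 each). For Meis2 it was 0.179 ± 0.0108, 0.202 ± 0.00577 and 0.0635 ± 0.00164 (SD, n = 3 each). For Pbx3 it was 0.199 ± 0.0105, 0.195 ± 0.00730 and 0.136 ± 0.00380 (SD, n = 3 each). Cerebellum was the lowest tissue for each gene as deposited, but relative to the library medians it was higher than cortex for Meis1 by 0.0464 and for Pbx3 by 0.0179, and lower for Meis2 (-0.0340). Olfactory bulb minus cortex was 0.0225 ± 0.0123 for Meis2, with no overlap between libraries, and 0.0121 ± 0.0112 for Meis1 and -0.00460 ± 0.0128 for Pbx3, with overlap. Libraries with the same replicate number, which are not known to share a mouse, were also taken as pairs. The SD of the difference within pairs was 0.00638 for Meis2, 0.00879 for Meis1 and 0.00917 for Pbx3 (n = 3 pairs). The bulb was above cortex in all 3 pairs for Meis1 (0.164 against 0.160, 0.177 against 0.167 and 0.170 against 0.149) and for Meis2, and in 1 of 3 pairs for Pbx3. Relative to the library medians all 3 were higher in bulb than in cortex, by 0.0350 for Meis1, 0.0453 for Meis2 and 0.0182 for Pbx3.

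Over all 1 Mb bins, 3.25% were called higher and 67.7% lower in olfactory bulb than in cortex, 97.6% lower in cerebellum than in cortex and 91.8% lower in cerebellum than in olfactory bulb (limma). Of the 5 gene bins 2 were higher in olfactory bulb, those with the bodies of Meis1 and Meis2, and 3 were not called. All 5 were lower in cerebellum in both comparisons. The libraries did not overlap in 2 of the 5 between olfactory bulb and cortex (71.5% of all bins), in 4 between cerebellum and cortex (97.9%) and in 5 between cerebellum and olfactory bulb (94%). Nothing is read from these counts, because the genes were chosen on the same samples. With each library centred on its median, the split over all bins was 935 higher and 853 lower for olfactory bulb minus cortex, 1298 and 1035 for cerebellum minus cortex, and 1314 and 1008 for cerebellum minus olfactory bulb. Among 2581 bins, the bin from 115000001 with most of Meis2 had the largest fall from olfactory bulb to cerebellum, -0.167, and was number 7 from the largest rise from cortex to olfactory bulb. The Meis1 bin from 18000001 was number 17 for that rise. As deposited, the flank bins had no such rise. In all 6 of them the mean of the bulb was below that of cortex, with differences from -0.0261 to -0.00573. Of these, 3 were called lower and 3 were not called. Their median difference of -0.0164 was near the median of -0.0198 over all bins, so nothing is read from this count.

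The sum of both marks was compared over the same 1 Mb bins, with 5mC averaged into them. At Meis2 it was 0.866 ± 0.0176 in cortex, 0.837 ± 0.00690 in the bulb and 0.826 ± 0.0119 in cerebellum (root of the summed squared SDs, from 3, 2 and 2 libraries of oxBS-seq and 3 of TAB-seq per tissue). At Meis1 it was 0.862 ± 0.0202, 0.872 ± 0.00717 and 0.841 ± 0.0130. At Pbx3 it was 0.839 ± 0.0278, 0.783 ± 0.0149 and 0.826 ± 0.0133, so the bulb was lowest. The medians over all bins were 0.851, 0.863 and 0.838. The share of 5hmC in the sum differed most between tissues at Meis2, with 20.7% in cortex, 24.1% in the bulb and 7.69% in cerebellum, against medians of 20.5%, 17.7% and 11.1%. In the bin from 115000001 to 116000000 the share was 21.8%, 28.3% and 8.60%. There, from cortex to olfactory bulb, 5mC went from 0.695 to 0.605 while 5hmC went from 0.194 to 0.239. At Pbx3 5mC went from 0.640 to 0.588 while 5hmC stayed at 0.199 and 0.195. The shares were 18.4%, 19.6% and 14.7% at Meis1 and 23.7%, 24.9% and 16.4% at Pbx3.

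Of the other TALE genes of the mouse, 13 were tested at the bin with their start, since most of them are short. They are Meis3, Pbx2, Pbx4, Pknox1, Pknox2 (which encode proteins close to MEIS), Tgif1, Tgif2 (corepressors of TGF-beta signalling) and Irx1 to Irx6 (Iroquois patterning factors). Their spans ran from 3.54 kb (Irx3) to 256 kb (Pknox2), so the start bin of a short one is mostly sequence outside the gene. For 5mC, 3 of the 13 were higher in olfactory bulb than in cortex (Meis3, Pbx4 and Pknox2) and 10 did not pass the test. Over all bins, 37.6% were higher and 2.18% lower. The median difference of the relatives was 0.0273, against 0.0307 over all bins. Centring the libraries left Meis3 as the only one higher of the 13, and Tgif2 as lower. The start bins of Meis2 and Pbx3 went down between the same tissues, with -0.230 and -0.210 for olfactory bulb minus cortex. That of Meis1 went down by far less, with -0.0312, and the 13 relatives ranged from -0.00789 to 0.101.

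The start bin of Meis3 went the opposite way to those of Meis2 and Pbx3 in the bulb. Meis3 spans 11.4 kb, so most of that 100 kb bin lies outside the gene, whereas Meis2 and Pbx3 cover 65.8% and 73.1% of theirs. The start bin of Meis3 had 0.462 ± 0.0141 (SD, n = 3) in cortex, 0.563 ± 0.00776 (SD, n = 2) in the bulb and 0.417 ± 0.0181 (SD, n = 2) in cerebellum, with no overlap. It was the only one of the 13 lower in cerebellum than in olfactory bulb (-0.85 on the scale of log2(level/(1 − level)), standard error 0.13, adjusted p = 2.09e-09, limma), and after centring Pbx4 was lower as well. Its fall from cortex to cerebellum (adjusted p = 0.0348, limma) did not pass the threshold without cortex replicate 1 or 2, either bulb library or cerebellum replicate 1, with adjusted p between 0.0547 and 0.275. From cortex to cerebellum 8 of the 13 were higher, 1 lower and 4 did not pass, against 71.9% of all bins higher and 4.44% lower. The median difference of the relatives was 0.0569, and 2 were higher and 2 lower after centring. From olfactory bulb to cerebellum 4 were higher (Pknox2, Tgif1, Irx2 and Irx5), 1 lower and 8 did not pass, against 35.3% of all bins higher and 7.69% lower. The median difference of the relatives was 0.0377. After centring, Pknox2 (adjusted p = 0.168, limma) and Tgif1 (adjusted p = 0.146, limma) no longer passed, which left 2 higher and 2 lower. Some calls of the relatives rested on single libraries. Without bulb replicate 2, 1 of the 3 calls for olfactory bulb minus cortex was left, and without cerebellum replicate 1, 5 of the 9 for cerebellum minus cortex. Of the 5 for cerebellum minus olfactory bulb, 3 were left without bulb replicate 1, bulb replicate 2 or cerebellum replicate 1.

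For 5hmC, 11 of the 13 relatives were lower in olfactory bulb than in cortex, 1 was higher (Tgif1, by 0.0331) and 1, Tgif2, did not pass. Over all bins of 1 Mb, 67.7% were lower and 3.25% higher. Irx5 and Irx6 share a bin of 1 Mb. Relative to the library medians 5 were higher and 3 lower, and without bulb replicate 3 of TAB-seq 6 of the 12 calls were left. In cerebellum 12 of the 13 were lower than in cortex and 12 lower than in olfactory bulb, against 97.6% and 91.8% of all bins. Relative to the library medians 8 and 9 of the 13 were higher. The medians of the relatives, -0.0199, -0.0617 and -0.0386 for the 3 comparisons, stood beside -0.0198, -0.0708 and -0.0498 over all bins.

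**Figure D5:**
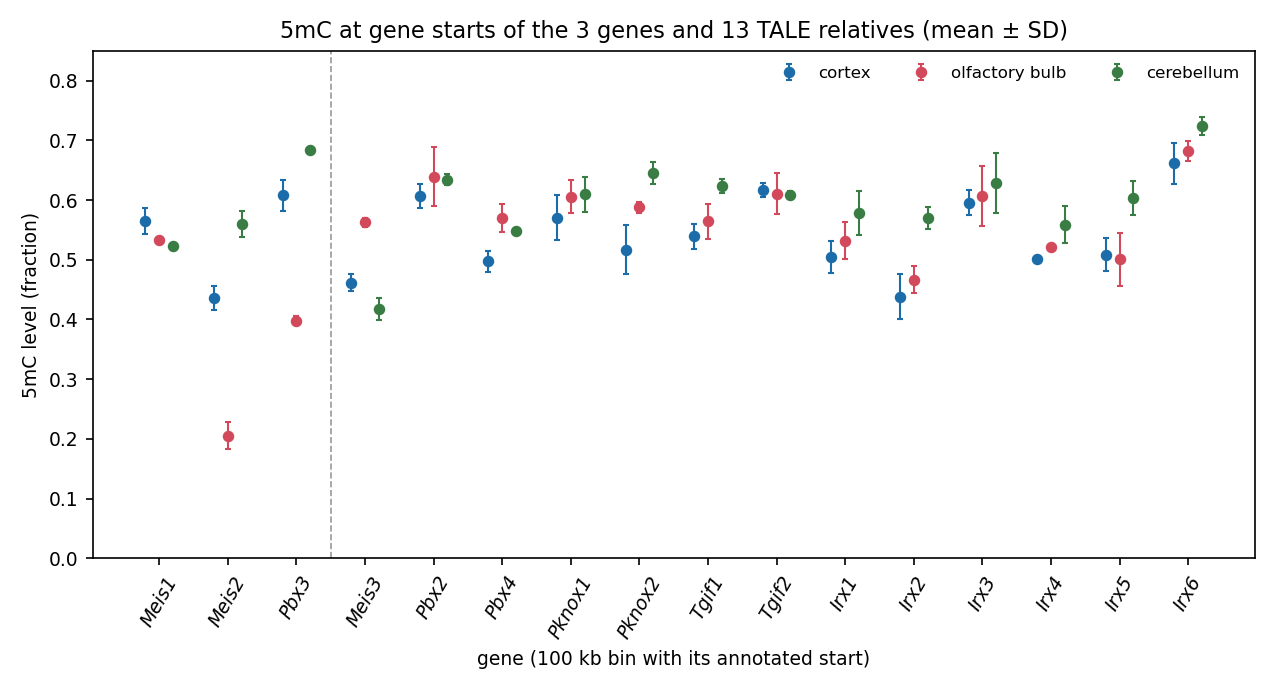
5mC level (fraction, mean ± SD) in the 100 kb bin with the annotated start of Meis1, Meis2 and Pbx3 (left of the dashed line) and of 13 TALE relatives, by tissue. Meis2 and Pbx3 have olfactory bulb as their lowest tissue. Meis1 (0.524, with 0.533 in the bulb) and Meis3 (0.417) have cerebellum. Irx5 also has the bulb lowest (0.501) and Tgif2 cerebellum (0.609), both with libraries that overlap those of the next tissue. The other relatives have cortex.

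The CpG sites of the 9 gene bins ranged from 612 in the middle bin of Pbx3 to 1214 in the start bin of Meis1. The bins with the largest fall in the bulb, those wholly inside Pbx3 and Meis2, had 612 and 894, on both sides of the median bin.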

How the data were processed

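TAB-seq and oxBS-seq libraries of cortex, olfactory bulb and cerebellum were grouped by their labels (16 of 22 samples, and the 6 RNA-seq samples were not analysed here). The authors mapped the reads to mm10 with Bismark (version not given in the sources used here) and deposited, for each library, the 5mC level per 100 kb bin or the 5hmC level per 1 Mb bin as a fraction. The deposited fraction carries no counts or coverage, and the sources do not say how a bin's reads or sites were pooled, so the depth behind a bin's value is unknown, although the study gives an average genome coverage per tissue, and precision rests on the SD between libraries. Bins listed at 0 or 1 in any library were left out (663 of 26327 for 5mC and 60 of 2641 for 5hmC).

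Levels of a gene are unweighted means of the bins that overlap its GENCODE release M21 span, and those of its flanks means of the bins within 1 Mb (10 bins of 100 kb, or 1 bin of 1 Mb, per side). Tests used limma 3.58.1 (R 4.3.3), fitted once per assay over the 3 tissues to log2(level/(1 − level)), with Benjamini-Hochberg adjustment over all bins. The fit gives nearly the same standard error to every bin, so a p-value hardly reflects a bin's own spread. Python 3.11.15, numpy 2.4.6, pandas 2.3.3 and matplotlib 3.10.9 were used for the rest.

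The members, the lists and the tests were chosen with earlier results of these data known. Named were the 3 genes, 13 TALE relatives, genes in the lowest or highest flank bins and, for each member, the 3 genes of at least 100 kb with the smallest root mean square difference of 5mC. Exceptions are stated where they occur, and 1 gene is not reported here. The alternatives were the fraction scale, centring on library medians, no filter (levels then held within 0.001 and 0.999), the trend and robust options of limma, the replicate number as a block, other weights, bins or flanks, and leaving out each library. Centring used medians of log2(level/(1 − level)) in the fits of limma and medians of the level for the 3 genes.

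The labels give a replicate number but do not say whether same-numbered libraries of different tissues share a mouse. For 5hmC of olfactory bulb and cortex, the deviations of same-numbered libraries from their tissue means correlated with r = 0.126, 0.344 and 0.250. Libraries of different numbers were not compared, so these values do not show that the numbers mark pairs. For oxBS-seq of olfactory bulb and cerebellum, the numbers of the labels differ from those in the library names, and the labels were used.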

Additional observations from a re-analysis of the deposited data

Results flagged for a closer look

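Each result here was singled out because gene minus flank lay above 0 in every library of one tissue and below 0 in every library of the other. None of these differences was tested. For 5mC of Pbx3, gene minus flank was lower in olfactory bulb (-0.148) than in cortex (0.0466), a difference of -0.195, and higher in cerebellum (0.0522) than in olfactory bulb by 0.201.

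For 5hmC of Meis1, gene minus flank was higher in olfactory bulb (0.0116) than in cortex (-0.0227) by 0.0343, and higher in cerebellum (0.00408) than in cortex by 0.0268. For 5hmC of Meis2 it was lower in cerebellum (-0.0220) than in olfactory bulb (0.0319), a difference of -0.0539. The 5hmC bins are mostly sequence outside the genes, whose part in these signs was not tested.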

How the results depend on the processing

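Coverage per bin is unknown, 5hmC is resolved only to 1 Mb, and tissues have 2 or 3 libraries. The cause of the changes below was not tested, except that fewer libraries entered a fit where one was left out, with a lone library of a tissue assumed to vary like the other groups.

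For the bins called, olfactory bulb minus cortex in 5mC had 10197 calls, 4802 after centring on library medians, 6077 with all bins, and between 3336 and 10199 without each library in turn (3336 and 4187 without bulb replicate 1 and 2). Cerebellum minus cortex had 19596, and 12841 after centring. Cerebellum minus olfactory bulb had 11043, and between 5821 and 13299 without each library (6972 and 6205 without bulb replicate 1 and 2, 5821 without cerebellum replicate 1). Calls among the TALE relatives ranged from 1 to 4 (3 with all libraries) for 5mC of olfactory bulb minus cortex, from 5 to 10 (9) for cerebellum minus cortex, which had 4 after centring, from 3 to 7 (5) for cerebellum minus olfactory bulb, and from 6 to 12 (12) for 5hmC of olfactory bulb minus cortex.

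With the replicate number as a block, the 5hmC bins called for olfactory bulb minus cortex went from 1831 to 1903, the 5mC bins to 8305, 19119 and 13739 for the 3 comparisons, and all 30 blocked values kept their direction and stayed within 1.5 times the unblocked count or within 1 SD. Among the relatives the block added Irx1 (adjusted p = 0.0247, limma) and Irx6 (adjusted p = 0.0170, limma) for 5mC of cerebellum minus olfactory bulb. For 5mC only cortex has a replicate 3, so the block in the limma fit takes up that library whole. Leaving out cortex replicate 3 without a block added the same calls of Irx1 and Irx6. The blocked 5mC fit is therefore no separate check of pairing. Outside 5hmC of olfactory bulb and cortex, same-numbered libraries correlated with r between -0.229 and 0.0743.

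For the differences in 5mC (olfactory bulb minus cortex, cerebellum minus cortex, cerebellum minus olfactory bulb), bins wholly inside the gene gave -0.168, -0.214 and -0.0465 for Meis1, -0.305, 0.155 and 0.460 for Meis2, and -0.308 and 0.365 for the first and last of Pbx3. Bins weighted by gene length gave -0.124 and -0.153 for the first and second of Meis1, 0.391 for the last of Meis2, and -0.235 and 0.296 for the first and last of Pbx3. For 5hmC this weighting gave 0.0272 and -0.0187 for the first and second of Meis1 and -0.148 for the last of Meis2, and a sum of both marks of 0.860 at Meis1 in cerebellum. Centring gave, for 5mC, -0.127 and -0.0310 for the second and last of Meis1, -0.279, 0.0577 and 0.337 for Meis2, and -0.220, -0.00107 (reversed) and 0.219 for Pbx3. For 5hmC it gave 0.0350, 0.0464 (reversed) and 0.0115 (reversed) for Meis1, 0.0453, -0.0340 and -0.0793 for Meis2, and 0.0182, 0.0179 (reversed) and -0.000346 for Pbx3. Without each library in turn, 5mC of Meis1 in cerebellum minus olfactory bulb ran from -0.0235 to 0.0100 and 5hmC of Pbx3 in olfactory bulb minus cortex from -0.00988 to 0.000605.

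For gene minus flank in 5mC, flanks of 500 kb gave -0.126 in cortex and -0.228 in cerebellum for Meis1, -0.188, -0.398 and -0.129 in cortex, olfactory bulb and cerebellum for Meis2, and -0.134 in olfactory bulb for Pbx3. In 5hmC, flanks of 2 Mb gave -0.0186, 0.0182 and 0.0209 for Meis1, 0.0353 in olfactory bulb and -0.0289 in cerebellum for Meis2, and 0.0290 (reversed), 0.0406 and 0.00561 (reversed) for Pbx3. The fraction scale and the trend and robust options left all 12 counts each within 1.5 times.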
